A study of Mus musculus with 3 samples.

Results

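The 10 genes described here encode subunits of the Polycomb repressive complexes: *Ezh1*, *Ezh2*, *Eed*, *Suz12*, *Jarid2*, *Mtf2*, *Phc1*, *Rnf2*, *Cbx7* and *Kdm2b*. They were chosen by name, and all 10 were found among the 23953 rows of each deposited table. RNA was sequenced from E14 mouse embryonic stem cells (ESCs), a male line grown with LIF and serum, in 3 libraries with 1 library per condition. The library labelled WT was set against the libraries labelled Tam (4-OH tamoxifen) and DoxTam (4-OH tamoxifen with doxycycline), both treated for 48 h, and the libraries Tam and DoxTam were also set against each other. All 3 libraries are labelled as carrying a doxycycline-inducible and a tamoxifen-inducible construct. The treated lines had the *Oct4* distal enhancer (DE) flanked by loxP sites and a transgenic *mOct4*. The paper reports that the cells sequenced under both treatments were of the bi-allelic (-/-) deletion line. By the study's methods, Cre was a tamoxifen-activated CreER(T2) and *Oct4* a doxycycline-driven transgene, both brought in by lentivirus, and cells were expanded clonally. The question was how expression changes once the DE is deleted, with or without *Oct4* supplied from the transgene. The sources used here do not say whether the WT cells were parental or floxed cells without treatment.

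Polycomb proteins keep developmental genes silent in ESCs. Polycomb repressive complex 2 (PRC2) methylates lysine 27 of histone H3 through EZH2 or EZH1, which need EED and SUZ12 for activity, and JARID2 and MTF2 help to bring the complex to CpG-rich DNA. Polycomb repressive complex 1 (PRC1) attaches ubiquitin to histone H2A through RNF2 or its paralog RING1. In canonical PRC1 a CBX protein such as CBX7 reads the methyl mark and PHC proteins link complexes together, whereas in variant PRC1 KDM2B binds unmethylated CpG through its zinc finger.

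Promoters are shown for 3 genes because the results below turn on them: *Rnf2* stood highest against WT, *Ring1* is its paralog, and *Jarid2* was the most abundant member. Each line gives the 250 bases before the transcription start in RefSeq (GRCm38.p6), read on the gene's strand, with every CG in capitals, since CpG is what KDM2B binds.
*Rnf2* (chr1:151500992-151501241, minus strand): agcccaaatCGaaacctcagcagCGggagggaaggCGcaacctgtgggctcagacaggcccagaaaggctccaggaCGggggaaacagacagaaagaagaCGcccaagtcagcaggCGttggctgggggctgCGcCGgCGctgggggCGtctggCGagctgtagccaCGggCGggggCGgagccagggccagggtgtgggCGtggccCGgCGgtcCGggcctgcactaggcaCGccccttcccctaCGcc
*Ring1* (chr17:34024681-34024930, minus strand): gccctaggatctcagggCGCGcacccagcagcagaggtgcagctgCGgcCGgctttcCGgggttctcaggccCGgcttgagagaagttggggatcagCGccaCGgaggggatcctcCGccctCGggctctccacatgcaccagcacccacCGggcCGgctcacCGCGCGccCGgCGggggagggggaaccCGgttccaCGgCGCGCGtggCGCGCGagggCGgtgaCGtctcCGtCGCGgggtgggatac
*Jarid2* (chr13:44730524-44730773, plus strand, the first of its 2 starts): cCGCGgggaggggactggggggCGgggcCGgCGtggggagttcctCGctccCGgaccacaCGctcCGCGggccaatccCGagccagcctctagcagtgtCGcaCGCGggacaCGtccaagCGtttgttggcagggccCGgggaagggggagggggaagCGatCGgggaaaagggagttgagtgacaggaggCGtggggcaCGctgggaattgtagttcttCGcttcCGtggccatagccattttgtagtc

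The letters CG, the same on both strands, occurred 20 times before *Rnf2*, 30 times before *Ring1* and 23 times before *Jarid2*. All 10 members had an entry, with 15 starts in all, and these held 2 to 38 CG with a median of 23. Over all 32851 RefSeq promoters of this length the median was 6 CG, 92.1% held at least 1, and 17.9% held as many as *Rnf2* or more. These promoters were not limited to genes expressed here, and some stretches of *Kdm2b* overlap each other. The medians therefore do not show that CG content is particular to the members. The second start of *Mtf2* had the fewest (2) and a start of *Kdm2b* the most (38).

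Before the members, the labels were checked. *Pou5f1*, which encodes OCT4, was at 664 FPKM (fragments per kilobase of transcript, scaled to the mapped fragments of the library) in WT, 529 FPKM in Tam and 458 FPKM in DoxTam. DoxTam, labelled as given the transgene's inducer, thus had the lowest level as deposited. The log2 fold of *Pou5f1* in DoxTam against Tam was -0.21 as deposited. It was -0.09 with the trend of folds on GC content, described below, subtracted. The summed FPKM of all genes was 957648 in Tam and 824098 in DoxTam, and *Pou5f1* was not rescaled to the same total. The ratio of *Pou5f1* FPKM in Tam to that in WT was 0.80. How much of the *Pou5f1* FPKM came from transgenic *mOct4* was not determined. For the bi-allelic deletion line, the paper reports by qPCR that doxycycline with tamoxifen brought *Oct4* close to the wild-type level. Under tamoxifen alone, it reports a nearly complete loss of *Oct4* expression in that line. The library labelled Tam did not show such a loss, and whether the DE was deleted in its cells was not tested. For both reasons the libraries are named by their labels throughout. All 8 ESC markers were abundant, the lowest of them at 110 FPKM in WT, 104 FPKM in Tam and 99.0 FPKM in DoxTam, and the summed levels of markers of other lineages were 1.29 to 26.4 FPKM per list and library, the highest being the neural list, mostly *Tubb3*. From the value of a single fragment, the libraries held about 11900000 (WT), 5430000 (Tam) and 6620000 (DoxTam) fragments. With 1 library per condition no difference below has a replicate check or a p-value, and fewer cells of a type cannot be told apart from less RNA per cell. A fold is given as log2((FPKM + 1)/(FPKM + 1)), a gene was counted at 1.5-fold (0.58), and the ± beside a fold is a 95% half-width of the log2 ratio of FPKM for counting error only.

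All 10 subunits were expressed in every library, with *Jarid2* highest, *Cbx7* sixth, *Kdm2b* ninth and *Ezh1* lowest in all 3. The members' median was 73.3 FPKM in WT, and 9 of them lay at or above the 88.6th percentile of all genes there. *Ezh1* lay at the 71.6th percentile. Of the 27 pairs of neighbours in the order of levels, 4 differed by less than counting error, namely *Mtf2* and *Phc1*, *Phc1* and *Eed*, and *Eed* and *Suz12* in Tam, and *Phc1* and *Mtf2* in DoxTam.

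**Figure D1:**
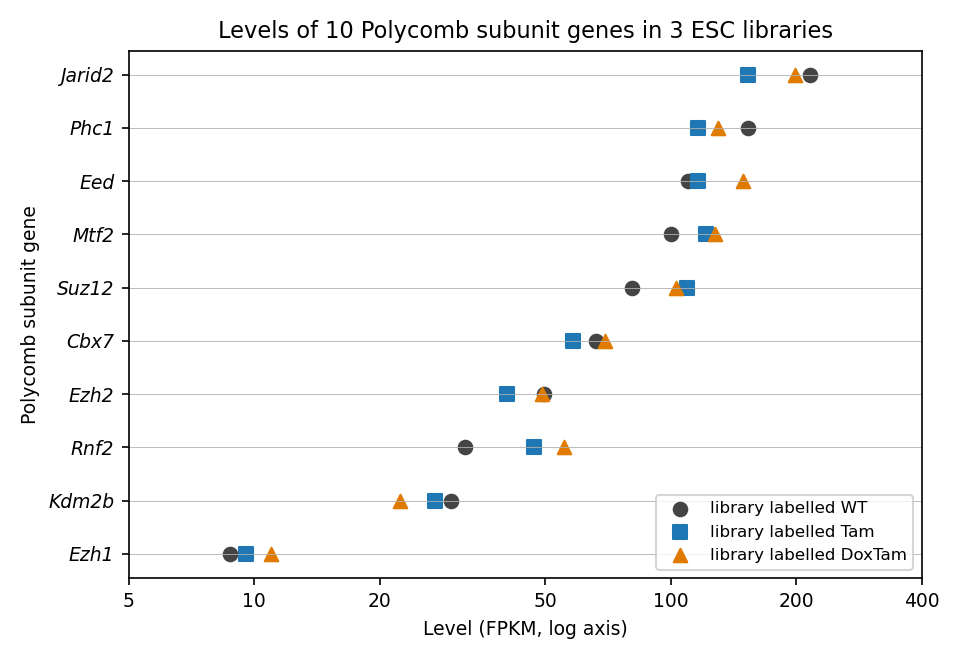
Level of each of the 10 subunit genes (FPKM, log axis) in the libraries labelled WT (circles), Tam (squares) and DoxTam (triangles), 1 library each. *Rnf2* is spread the most, from 32.1 to 55.3 FPKM, and *Ezh1* stays lowest, at 8.76 to 11.0 FPKM.

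Against WT, *Rnf2*, which encodes the main E3 ligase of PRC1, was the only member to reach 1.5-fold. WT had 32.1 FPKM, Tam 46.9 FPKM and DoxTam 55.3 FPKM. Both treated libraries stood above WT, by 0.54 ± 0.13 in Tam and 0.77 ± 0.12 in DoxTam on the log2 scale, which is a 1.73-fold ratio of FPKM in DoxTam. These values rested on about 1150, 772 and 1110 fragments. *Rnf2* lies on the minus strand at chr1:153316536-153347953 (mm9, as all gene positions below), and no other annotated gene overlaps its span. Among all measured genes, its fold stood at percentile 91.9 in Tam and percentile 98.3 in DoxTam.

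*Ring1*, which encodes the other RING1 ligase, had the reverse order. It was at 3.21 FPKM in WT, 1.96 FPKM in Tam and 1.61 FPKM in DoxTam, with folds of -0.51 and -0.69. It rested on about 77.6, 21.7 and 21.7 fragments, and counting error alone gave a half-width of 0.69 in either comparison. This half-width belongs to the log2 ratio of FPKM, and the ratios to WT were 0.61 in Tam and 0.50 in DoxTam. It is not to be set against the folds, which the pseudocount makes smaller at such low levels. *Rnf2* held 90.9 ± 1.9% of the summed FPKM of the pair in WT, 96.0 ± 1.64% in Tam and 97.2 ± 1.17% in DoxTam, where ± is the counting half-width. The ratio of *Rnf2* to *Ring1* was 9.98 in WT, 23.9 in Tam and 34.3 in DoxTam. A ratio within a library does not depend on how libraries are scaled to each other, but this one was not corrected for GC content. The shares of *Rnf2* in Tam and DoxTam overlap within their half-widths.

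GC content moved with these folds. Transcripts of *Rnf2* are 39.1% GC and those of *Ring1* 60.7% GC, below the 40.2% and above the 60.3% that are the median GC of the lowest and the highest of 10 GC groups of the measured genes. Across these groups, the median fold ran from 0.24 in the lowest to -0.19 in the highest in Tam, and from 0.34 to -0.34 in DoxTam. With this trend subtracted, the fold of *Rnf2* was 0.27 in Tam and 0.40 in DoxTam, on the same side of 0 but under 1.5-fold, and that of *Ring1* was -0.31 and -0.34. The share of *Rnf2* in the pair was then 94.5% in Tam and 95.4% in DoxTam, still above the 90.9% of WT.

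**Figure D2:**
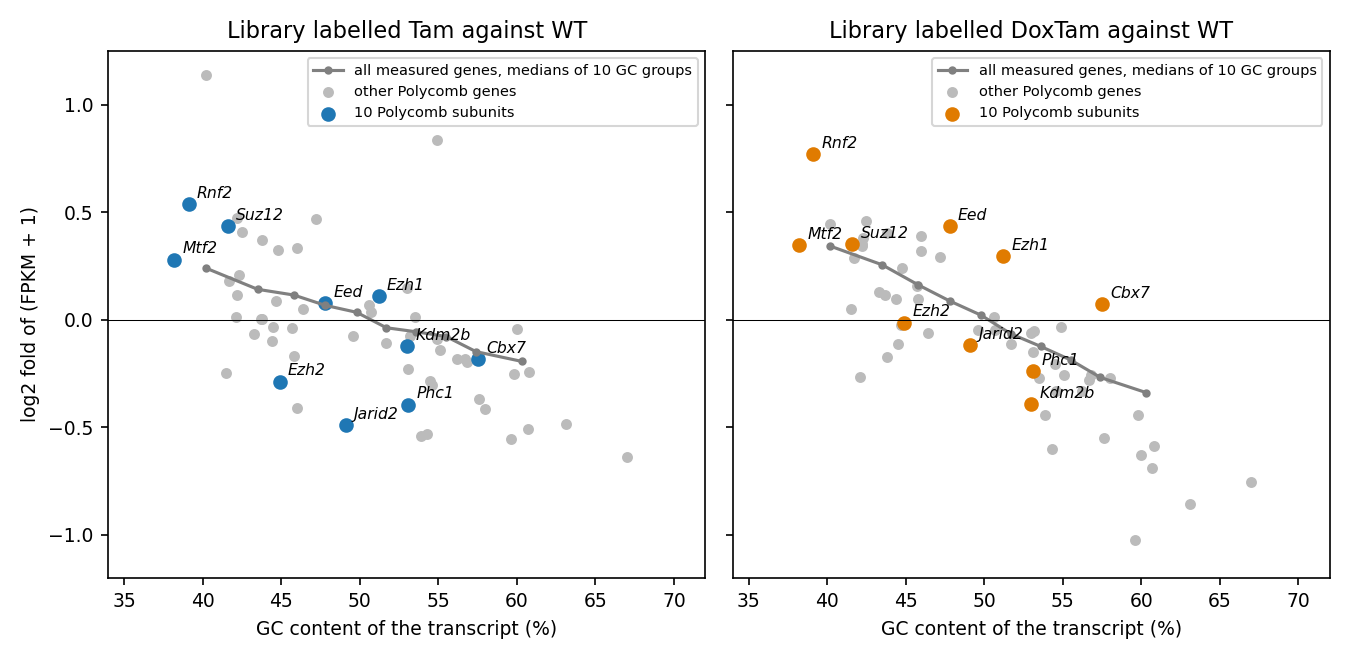
Log2 fold of (FPKM + 1) against WT on the vertical axis and GC content of the longest coding transcript (%) on the horizontal axis, for the library labelled Tam (left) and DoxTam (right). Coloured points are the 10 subunits, pale points other Polycomb genes, and the grey line joins the medians of 10 GC groups of all measured genes. *Rnf2* lies above the line in both panels, and *Mtf2* and *Suz12* lie near it in DoxTam.

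The other PRC1 members stayed within 1.5-fold. *Phc1* (chr6:122267749-122290245, minus strand), a SAM-domain protein that links PRC1 complexes, was at 153 FPKM in WT, 116 FPKM in Tam and 130 FPKM in DoxTam. Its level was highest in WT, with folds of -0.40 ± 0.06 in Tam and -0.24 ± 0.06 in DoxTam, the latter turning to 0.12 when libraries were rescaled to the same FPKM total. *Phc1* made up 89.0% of the summed FPKM of *Phc1*, *Phc2* and *Phc3* in WT, 86.5% in Tam and 88.6% in DoxTam, and the share of *Phc3* was 2.63%, 4.57% and 4.30%.

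*Cbx7* (chr15:79746237-79763076, minus strand), the chromobox protein that reads methylated lysine 27 in ESCs, was at 66.1 FPKM in WT, 58.2 FPKM in Tam and 69.6 FPKM in DoxTam. DoxTam was highest and Tam lowest, and the folds against WT were -0.18 ± 0.10 and 0.07 ± 0.09. The value in Tam was within counting error, at -0.04, both with the GC trend subtracted and with the same FPKM total. The value in DoxTam was within counting error as deposited and 0.34 with the GC trend subtracted. Among the 5 PRC1 CBX genes, *Cbx7* held 67.9% of the summed FPKM in WT, 67.9% in Tam and 74.9 ± 1.6% in DoxTam, and 75.2% there after the GC subtraction. *Cbx2* held 11.6%, 9.92% and 7.93%, and *Cbx6* held 19.8%, 19.7% and 16.9%.

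*Kdm2b* (chr5:123320685-123439101, minus strand), which carries the CpG-binding zinc finger of a variant PRC1, was at 29.6 FPKM in WT, 27.2 FPKM in Tam and 22.4 FPKM in DoxTam. It was the only member with its lowest level in DoxTam, at -0.39 ± 0.12 against WT as deposited, -0.29 with the GC trend subtracted and -0.04, within counting error, with the same FPKM total. Its fold of -0.12 ± 0.12 in Tam was about the size of counting error and turned to 0.02 with the same FPKM total. Its paralog *Kdm2a* was at 25.9, 27.2 and 28.5 FPKM in the same order. *Kdm2b* was therefore the larger part of the pair in WT, at 53.3 ± 1.53%, level with *Kdm2a* in Tam, at 49.9 ± 2.31%, and the smaller part in DoxTam, at 44.0 ± 2.17%. After the GC subtraction the DoxTam share was 45.6%.

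**Figure D3:**
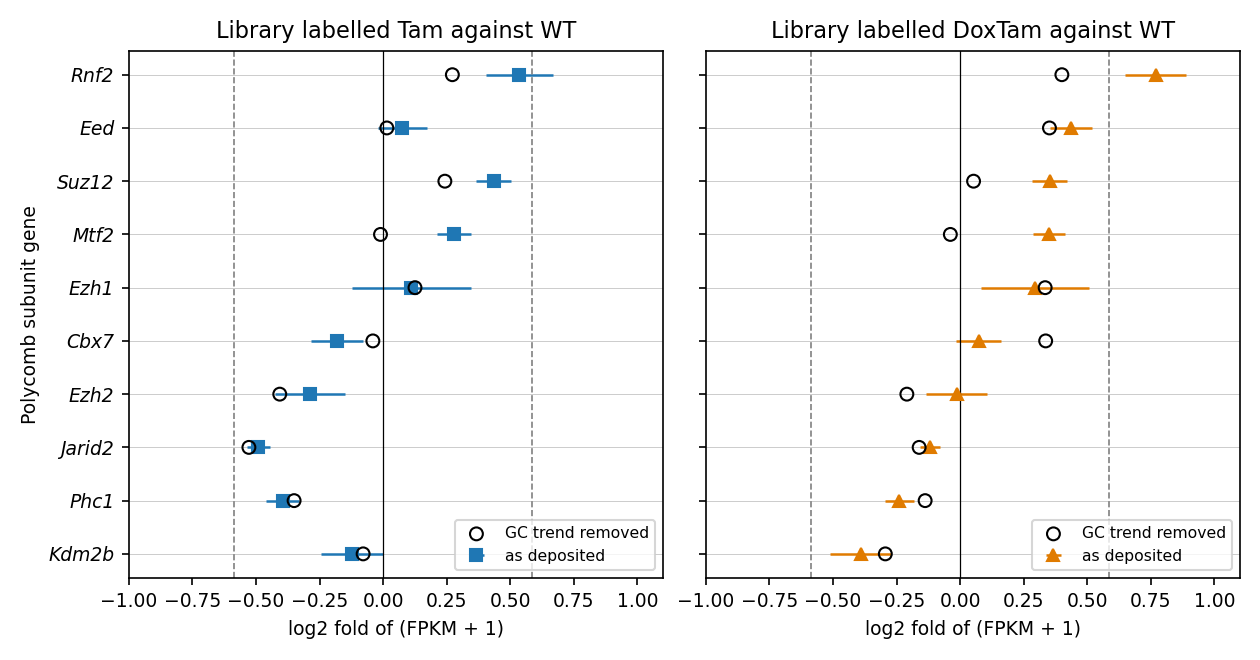
Log2 fold of (FPKM + 1) against WT for the 10 subunits in the library labelled Tam (left) and DoxTam (right). Filled points are values as deposited with 95% counting half-widths, open circles have the GC trend subtracted, and dashed lines mark 1.5-fold. *Rnf2* in DoxTam (0.77) is the single filled point past a dashed line, and its open circle (0.40) is inside it.

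Of the PRC2 core, *Suz12* stood above WT in both treated libraries and *Eed* in DoxTam by more than counting error, and the methyltransferase *Ezh2* stood below WT in Tam. *Suz12* (chr11:79806608-79847625, plus strand, overlapped by the lincRNA gene Gm16706 on the other strand), which encodes the scaffold subunit, was at 80.5 FPKM in WT, 109 FPKM in Tam and 103 FPKM in DoxTam. Its folds were 0.43 ± 0.07 and 0.35 ± 0.07. Its transcript is 41.6% GC, and with the GC trend subtracted the folds were 0.24 and 0.05.

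*Eed* (chr7:97103164-97129486, minus strand), which encodes the subunit that binds the methyl mark, was at 110 FPKM in WT, 116 FPKM in Tam and 149 FPKM in DoxTam. WT and Tam were close, at 0.08 ± 0.10, and DoxTam was highest, at 0.43 ± 0.08 against WT and 0.36 ± 0.10 against Tam. Its transcript is 47.8% GC, and with the GC trend subtracted the folds were 0.01 in Tam, 0.35 in DoxTam and 0.34 between the treated libraries.

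*Ezh2* (chr6:47480273-47545029, minus strand, overlapped by the lincRNA gene Gm17629 on the other strand), the main methyltransferase of cycling cells, was at 49.6 FPKM in WT, 40.4 FPKM in Tam and 49.1 FPKM in DoxTam. Tam was the lowest, at -0.29 ± 0.14 as deposited, -0.41 with the GC trend subtracted and -0.145 with the same FPKM total. The DoxTam fold of -0.01 ± 0.12 was within counting error, and it was -0.21 with the GC trend subtracted and 0.34 with the same FPKM total. *Ezh1* (chr11:101052429-101087764, minus strand), its paralog with weaker methyltransferase activity, was at 8.76 FPKM in WT, 9.54 FPKM in Tam and 11.0 FPKM in DoxTam, and rested on the fewest fragments of the 10 (about 438, 218 and 306). Its folds were 0.11 ± 0.23 and 0.29 ± 0.21. *Ezh1* held 15.0 ± 1.35% of the pair's FPKM in WT, 19.1 ± 2.4% in Tam and 18.3 ± 1.95% in DoxTam, so *Ezh2* remained the larger part in every library.

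The balance of the PRC2 core transcripts differed between libraries. The ratio of *Suz12* to *Ezh2* was 1.62 in WT, 2.70 in Tam and 2.10 in DoxTam. The ratio of *Eed* to *Ezh2* was 2.22, 2.87 and 3.03 in the same order. These compare FPKM, a level per length, and were not corrected for GC.

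The accessory subunits *Jarid2* and *Mtf2* went opposite ways in Tam as deposited. *Jarid2* (chr13:44826143-45017012, plus strand), a catalytically inactive Jumonji protein that stimulates PRC2, was at 215 FPKM in WT, 153 FPKM in Tam and 198 FPKM in DoxTam. Tam was the lowest of the 3, with a fold of -0.49 ± 0.05 against WT, the lowest among the members, and -0.53 with the GC trend subtracted. In DoxTam the fold was -0.12 ± 0.04, or 0.24 with the same FPKM total, and DoxTam was above Tam by 0.37 ± 0.05. A small nucleolar RNA gene, SNORA61, lies within the *Jarid2* span on the opposite strand.

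*Mtf2* (chr5:108494693-108538238, plus strand), a Polycomb-like protein that binds CpG-rich DNA, was at 100 FPKM in WT, 122 FPKM in Tam and 128 FPKM in DoxTam. WT was lowest as deposited, with folds of 0.28 ± 0.07 and 0.35 ± 0.06, but these were -0.01 and -0.04 with the GC trend subtracted. At 38.2% its GC content was the lowest of the members. Its locus overlaps *Tmed5* on the opposite strand, and the sources used here do not give the strand setting of the counting. Among the Polycomb-like genes *Mtf2*, *Phf1* and *Phf19*, *Mtf2* held 89.9 ± 0.95% of the FPKM in WT, 92.7 ± 1.15% in Tam and 94.8 ± 0.85% in DoxTam, or 90.3% and 92.1% with the GC trend subtracted. *Phf1* was at 7.80, 7.55 and 4.69 FPKM.

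**Figure D4:**
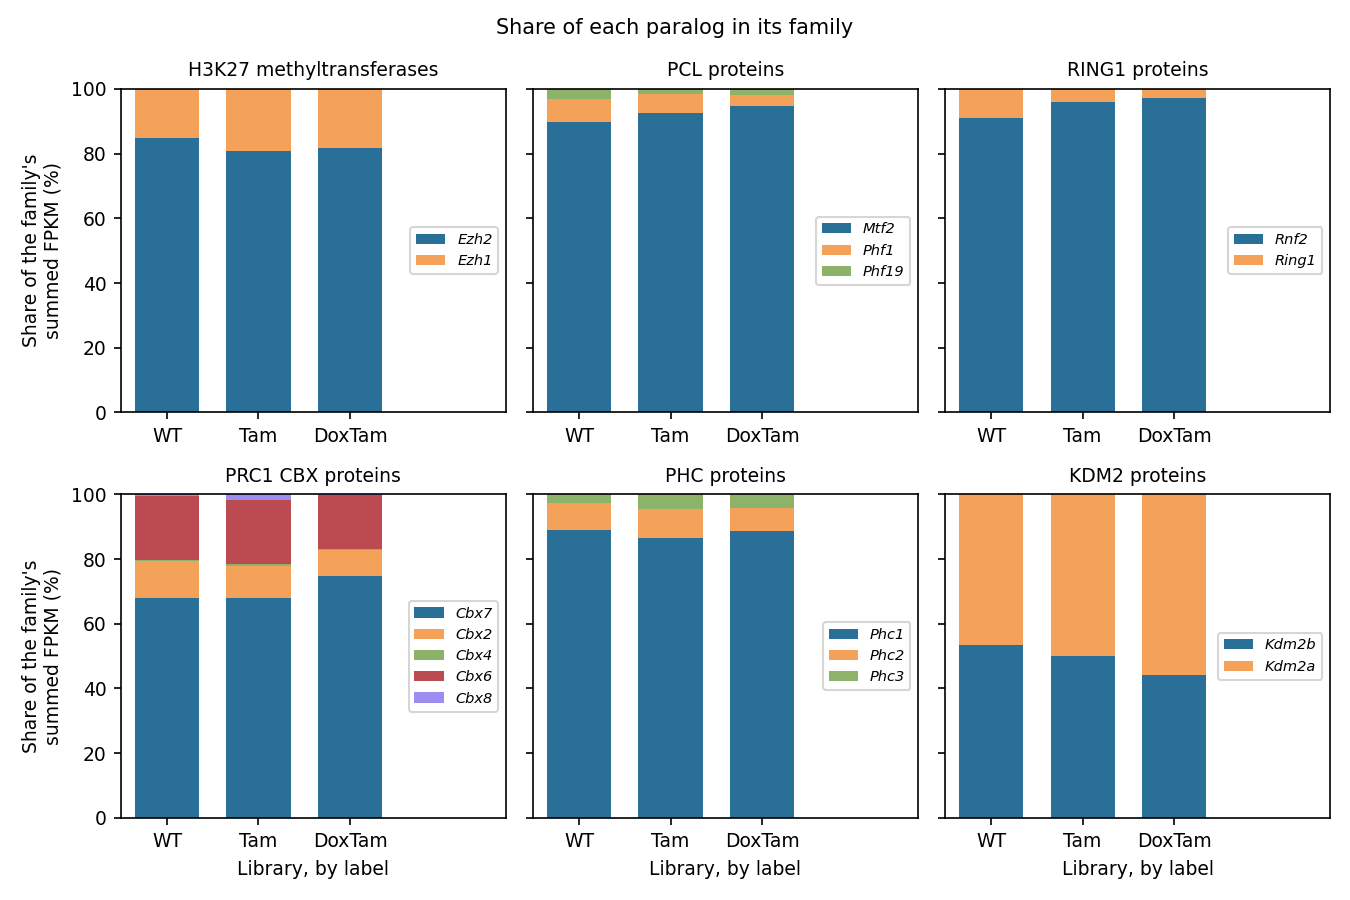
Share (%) of each paralog in the summed FPKM of its family, in the libraries labelled WT, Tam and DoxTam, 1 library each. The dark blue part at the bottom is *Ezh2* in the first panel and a member in the others. *Rnf2* takes 90.9%, 96.0% and 97.2% of its pair, and *Kdm2b* takes 53.3%, 49.9% and 44.0%.

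In Tam against WT, 0 of 10 were higher at 1.5-fold and 0 lower, where 6.98% of the 12705 measured genes (those reaching 1 FPKM in either library of the pair) were higher and 3.59% lower. At a lower limit of 0.32 on the log2 scale, *Suz12* and *Rnf2* were higher and *Jarid2* and *Phc1* lower, 2 of 10 each way, where 18.4% of all genes were higher and 14.3% lower. With the GC trend subtracted, 0 were higher and 3 lower at this limit, since *Suz12* (0.24) and *Rnf2* (0.27) no longer passed it and *Ezh2* (-0.41) did. The share of all genes with the trend subtracted was not counted, so these counts have no background share. The members' median was -0.02 and that of all genes 0.02.

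In DoxTam against WT, 1 of 10 was higher at 1.5-fold (*Rnf2*) and 0 lower, where 4.12% of 12382 measured genes were higher and 5.78% lower. At the limit of 0.32, 4 were higher (*Eed*, *Suz12*, *Mtf2* and *Rnf2*) and 1 lower (*Kdm2b*), against 17.2% and 18.6% of all genes. With the GC trend subtracted the 4 higher were *Ezh1* (0.33), *Eed* (0.35), *Rnf2* (0.40) and *Cbx7* (0.34), and 0 were lower, since *Suz12* (0.05), *Mtf2* (-0.04) and *Kdm2b* (-0.29) no longer passed. The share of all genes past this limit was not counted with the trend subtracted. The members' median was 0.18 and that of all genes -0.003. The 6 members above 0 had a median GC of 44.7% and the 4 below 0 one of 51.1%, and with the GC trend subtracted the members' median was 0.01 and none reached 1.5-fold. With the same FPKM total 5 were higher at 1.5-fold. That scaling moved the median fold of all genes to 0.31, and the share of all genes past 1.5-fold under it was not counted.

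In DoxTam against Tam, 0 of 10 were higher and 0 lower at 1.5-fold, where 2.09% of 12628 measured genes were higher and 5.73% lower. At the limit of 0.32, 2 were higher (*Eed* and *Jarid2*) and 0 lower, against 9.15% and 15.5% of all genes. With the GC trend subtracted, 3 were higher, as *Cbx7* (0.37) also passed, and 0 lower. The share of all genes was not counted with that trend subtracted. In this comparison the members' median was 0.21 where that of all genes was -0.02. The members' median after GC subtraction was 0.20. The comparisons share libraries, so their values are given side by side and were not combined. Rescaling to the same FPKM total moved the median fold of all genes to 0.15, 0.31 and 0.17 in the 3 comparisons, and the members' medians to 0.12, 0.53 and 0.41.

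The list of 50 other Polycomb genes also lay mostly within 1.5-fold. In Tam, 49 were measured, of which 2 were higher and 1 lower, where 6.98% and 3.59% of all genes were. The counts were 3 and 0 with the same FPKM total, and 2 and 2 with that total counted without small RNA genes. The median was -0.07. *Bmi1*, a PCGF subunit of canonical PRC1, was at 1.86 FPKM in WT, 5.30 FPKM in Tam and 2.89 FPKM in DoxTam, with a fold of 1.14 in Tam. *Cbx8*, one of the CBX genes, was at 0.50, 1.68 and 0.09 FPKM, with a fold of 0.84 in Tam, and rested on about 21.2, 32.6 and 2.18 fragments. It reached 1 FPKM in Tam alone, so it was measured, in this comparison and against DoxTam, only through the library where it was high. *Epop*, listed under the older symbol E130012A19Rik, encodes a PRC2 partner highly expressed in ESCs and was at 405 FPKM in WT, 260 FPKM in Tam and 240 FPKM in DoxTam. It was the 1 lower gene in Tam, at -0.64, and at 67.0% GC it was at -0.26 with the trend subtracted.

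In DoxTam, 48 of these genes were measured, of which 0 were higher and 7 lower as deposited, where 4.12% and 5.78% of all genes were. With the same FPKM total, which moved the median fold of all genes to 0.31, 10 were higher and 1 lower. The median of these genes was -0.06 as deposited. The lowest were *Kdm6b* (-1.02), a demethylase of lysine 27, *Mbd6* (-0.86), which belongs to the H2A deubiquitinase complex, *Epop* (-0.75) and *Ring1* (-0.69). With the GC trend subtracted only *Kdm6b* remained past 1.5-fold, at -0.70. *Kdm6b* was at 32.0 FPKM in WT, 21.5 FPKM in Tam and 15.3 FPKM in DoxTam, and the other demethylase, *Kdm6a*, was at 14.4, 19.4 and 20.1 FPKM. The ratio of *Kdm6b* to *Kdm6a* was thus 2.23 in WT, 1.11 in Tam and 0.76 in DoxTam. It was not corrected for GC, which is 59.6% for *Kdm6b* and 42.5% for *Kdm6a*. The folds of *Kdm6b* and *Kdm6a* with the GC trend subtracted were -0.38 and 0.24 in Tam, and -0.70 and 0.18 in DoxTam. In both libraries these lay closer together than as deposited.

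By complex in DoxTam, 2 of 7 other PRC2 genes, 1 of 9 measured canonical PRC1 genes, 2 of 18 variant PRC1 genes, 1 of 8 genes of the H2A deubiquitinase complex and 1 of 2 demethylase genes were lower, where 5.78% of all genes were. With the GC trend subtracted, the demethylase gene was the 1 left. None of the 4 genes of PhoRC and related proteins passed. In DoxTam against Tam, 1 of 48 measured other Polycomb genes was higher and 3 lower, where 2.09% and 5.73% of all genes were. The counts were 1 and 1 with the same FPKM total. Those lower as deposited were *Bmi1* (-0.70), *Phf1* (-0.59) and *Cbx8*, the last from about 2.18 fragments in DoxTam. With the GC trend subtracted *Phf1* was at -0.45 and no longer counted. The 1 higher was *Sfmbt2*, a PhoRC-related gene, at 0.73 as deposited and 0.68 with the GC trend subtracted, from 6.32 FPKM in Tam and 11.2 FPKM in DoxTam.

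**Figure D5:**
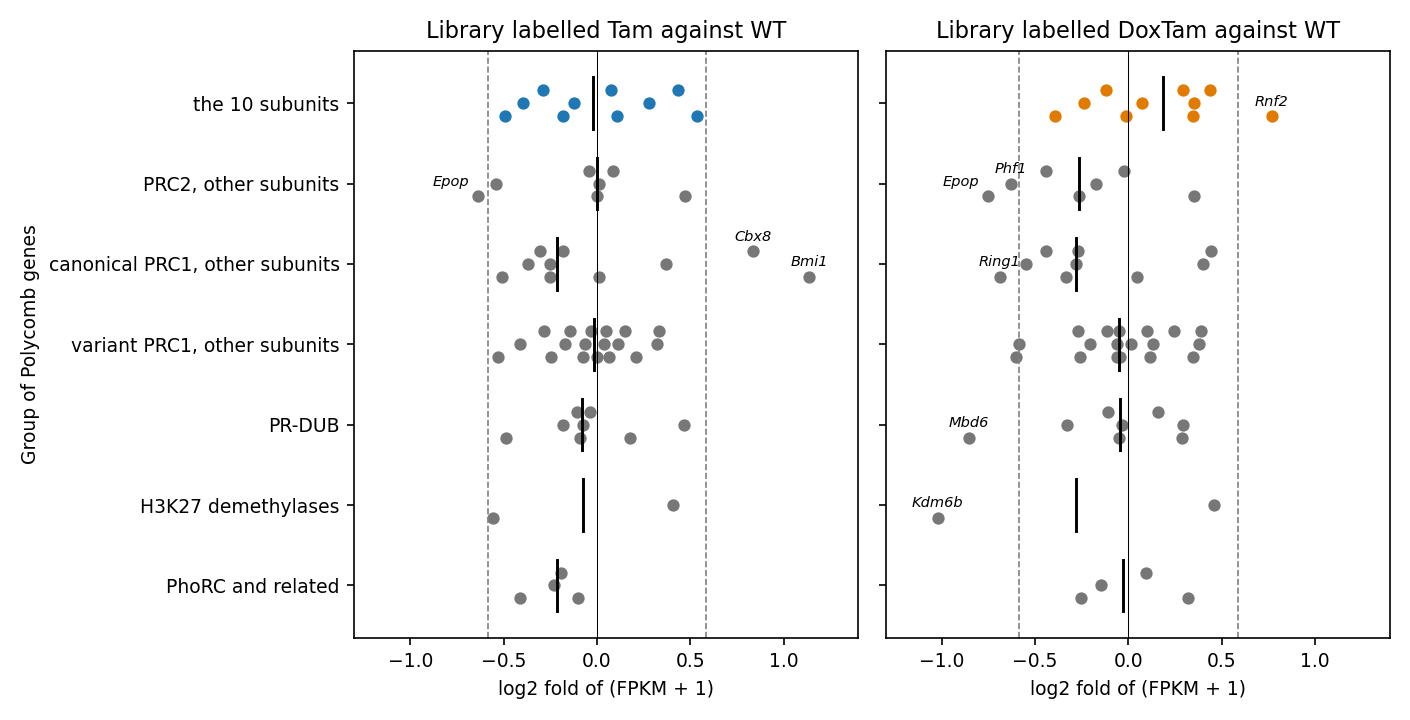
Log2 fold of (FPKM + 1) against WT for the 10 subunits (coloured) and the other measured Polycomb genes (grey) by complex, in the library labelled Tam (left) and DoxTam (right). Short vertical bars are medians and dashed lines mark 1.5-fold. The names shown pass it, with 2 higher and 1 lower grey points in Tam and 7 lower in DoxTam, of which 2 variant PRC1 genes are unlabelled.

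The silent state of classical Polycomb targets was also read from the files. Of 24 developmental genes, 20 were below 1 FPKM in WT, 18 in Tam and 21 in DoxTam, with median levels of 0.28, 0.55 and 0.17 FPKM. The cell cycle inhibitor locus *Cdkn2a* had the highest level in every library, up to 14.0 FPKM. In Tam 6 were measured, of which 2 were higher, *Cdx2* (0.64, 2.82 and 0.13 FPKM in WT, Tam and DoxTam, a fold of 1.22) and *T* (0.31, 1.92 and 0.51 FPKM, a fold of 1.16), and *Nkx2-9* was lower at -0.92. Of all genes, 6.98% were higher and 3.59% lower. *Cdx2* and *T* reached 1 FPKM in Tam alone, so the filter admitted them through the library where they were high, and the count of 2 carries no weight. *Cdx2*, *T* and *Nkx2-9* rested on about 34.6, 21.4 and 9.67 fragments in Tam. In DoxTam 4 were measured, of which *Eomes* was higher at 0.72 and *Nkx2-9* lower at -0.69, where 4.12% and 5.78% of all genes were. *Nkx2-9* rested there on about 15.2 fragments, and it was at -0.36, within 1.5-fold, with the GC trend subtracted. Its counting half-width of 0.82 belongs to the log2 ratio of FPKM without the pseudocount, and that ratio to WT was 0.51. Low levels in general followed the same order. Among 987 genes of the olfactory receptor family, 32.4% were above 0 in WT, 69.7% in Tam and 16.1% in DoxTam, and the part of this background in the targets' values was not tested.

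The 5 genes whose pair of folds lay nearest to that of *Rnf2* were *Tspan6*, *Acbd5*, *Calm2*, *Zfp101* and *Tmx3*, by Euclidean distance over both comparisons with WT among 7570 genes at 5 FPKM or more in all libraries. The distances were 0.02 to 0.04 on the log2 scale. Their transcripts were 35.3% to 42.7% GC, a range that includes *Rnf2*. *Calm2*, which encodes calmodulin, was the most abundant, at 146 FPKM in WT, 209 FPKM in Tam and 254 FPKM in DoxTam.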

How the data were processed

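The authors deposited 2 tables with FPKM values, 1 for each treated library beside WT. By the submitters' processing notes they were made with TopHat, Bowtie and Cufflinks 2.0.0 on mm9, and the sources used here do not give the aligners' versions, the annotation or the strand setting. Libraries were prepared from 1 µg of total RNA with a TruSeq stranded kit. WT levels were the same in both tables for the 10 members, so levels are set side by side across them. Of 23953 rows per table, 27 names occur in only 1 table, and 4 rows with repeated names were left out of the DoxTam table. The deposited log2 ratio, p-value and q-value columns and the test score hold the authors' own comparisons and were not used, and 0 value columns lacked a library.

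From the FPKM values, log2 folds were computed with a pseudocount of 1 FPKM for genes that reached 1 FPKM in either library compared, without further scaling. GC content was taken from the longest coding transcript of GENCODE vM1 on NCBIM37 (mm9), and a lowess curve (span 0.2) of fold on GC was subtracted as an alternative. Other alternatives were pseudocounts of 0.1 and 5 FPKM, other filters, other scalings and thresholds of 0.32 (log2) and 2-fold. Approximate fragments came from the lowest values above 0 of one-exon olfactory receptor genes 800 to 1200 bp long, and half-widths (95%) cover counting error only. Python 3.11.15, pandas 2.3.3 and statsmodels 0.14.6 were used, and the fold calculation was tested on simulated data.

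The members, the gene lists and the alternatives were chosen with earlier results of these data known. Named genes are the members, their paralogs, *Pou5f1*, at most 4 genes per direction and list past 1.5-fold against WT, and the 5 genes nearest to the member with the largest fold. *Tubb3*, *Cdkn2a*, *Sfmbt2* and *Tmed5* were named after their values or position were seen, as was the lower set in DoxTam against Tam. *Kdm6a*, and with it the ratio of *Kdm6b* to *Kdm6a*, also falls outside the rule for named genes. Promoters are from RefSeq (GRCm38.p6), a build other than that of the tables, and no coordinates were converted. Protein sequences were not used here.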

Additional observations from a re-analysis of the deposited data

How the results depend on the processing

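With 1 library per condition, the limit on every value is that the spread between cultures is unknown. Depth adds to it below 1 FPKM, where a value rests on few fragments. No paired analysis was possible because each condition has 1 library and no test was made. Under the other filters, the total without small RNA genes and centring on the median, the list counts stayed within 1.5 times and the members' medians moved by less than the members' counting half-width.

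In Tam against WT, the members past 1.5-fold were 1 with the same FPKM total and 4 at a limit of 0.32 (log2), and their median was 0.12 with the same total. The other Polycomb genes past the threshold were 7 with a pseudocount of 0.1 FPKM, 17 at a limit of 0.32 (log2) and 1 at 2-fold. These 17 were 8 higher and 9 lower of 49 measured, where 18.4% of all genes were higher and 14.3% lower. In DoxTam against WT, the members were 5 with the same total, 0 with the GC trend subtracted, 5 at a limit of 0.32 (log2) and 0 at 2-fold, and their median was 0.526 with the same total and 0.00734 with the GC trend subtracted. The other genes were 3 with a pseudocount of 5 FPKM, 11 with the same total (10 higher and 1 lower), 1 with the GC trend subtracted, 19 at a limit of 0.32 (log2) and 1 at 2-fold. Of 48 measured, those 19 were 7 higher and 12 lower, where 17.2% and 18.6% of all genes were. In DoxTam against Tam, the members were 1 with the same total and 2 at a limit of 0.32 (log2), and their median was 0.413 with the same total. The other genes were 0 with a pseudocount of 5 FPKM, 2 with the same total, 7 at a limit of 0.32 (log2) and 1 at 2-fold. Those 7 were 1 higher and 6 lower of 48 measured, where 9.15% and 15.5% of all genes were. With the GC trend subtracted the shares were 20.8% for *Ezh1*, 79.2% for *Ezh2*, 92.1% for *Mtf2* and 95.4% for *Rnf2* in DoxTam, and 90.3% for *Mtf2* in Tam.

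The same FPKM total shifts all genes, and 28 of 30 member folds moved past counting error under it, but 29 of 30 did not when small RNA genes were left out of the total. Shares of all genes past a limit were counted as deposited only, so counts under other settings have no such share beside them. The GC subtraction moved 15 of 30. Single folds changed sign under the same total for *Kdm2b* in Tam, for *Ezh2*, *Jarid2* and *Phc1* in DoxTam and for *Suz12* in DoxTam against Tam, and under the GC subtraction for *Mtf2* in all 3 comparisons. Further causes were not tested.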
